A study of Arabidopsis thaliana with 6 samples.

Results

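The 625 tRNA genes annotated on the 5 nuclear chromosomes of Arabidopsis thaliana, each with 500 bp to either side, were examined for summits of tagged WDR5A in chromatin immunoprecipitation followed by sequencing (ChIP-seq). They were taken by gene class alone, out of 37899 nuclear genes in the annotation, and the rule uses no measured value. A summit is the base at which a called peak is highest. The samples were whole seedlings of 9 days, kept in constant white light, and the descriptions and the genotype label read WDR5A-HA_pkl, that is, WDR5A carrying the HA epitope tag together with a pkl label. Of the 6 libraries, 3 were immunoprecipitated with an antibody to HA (WDR5A-HA_pkl-IP) and 3 were inputs (WDR5A-HA_pkl-input), all of the same genotype label. The sample titles instead read PKL_WT for the immunoprecipitated libraries and PKL_jaw-5D for the inputs, and the descriptions were followed. Neither the promoter that drives the tagged protein nor the pkl allele is given in the labels. A deposited summit list was analysed for each of the 3 immunoprecipitated libraries. The inputs and other genotypes were not analysed here, so there is no contrast between conditions, and how much signal an untagged plant or an input would give at these loci was not tested.

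tRNA genes are very short genes transcribed by RNA polymerase III. Their promoter lies inside the transcribed sequence, where the A box and B box are bound by TFIIIC, which brings in TFIIIB and then the polymerase. WDR5A is a core subunit of COMPASS-like complexes, which methylate lysine 4 of histone H3, a mark best known from genes transcribed by RNA polymerase II, and PKL (PICKLE) is a chromatin remodeller of the CHD3 type. In Arabidopsis most nuclear tRNA genes stand alone among protein-coding genes, while some tyrosine, serine and proline tRNA genes lie in tandem arrays.

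Replicates 1, 2 and 3 had 10864, 10408 and 10826 summits. Read numbers are unknown, counting error could therefore not be given, and a locus without a summit is one at which none was called. Each summit has a strength, the −log10 q of its peak as deposited, which grows with sequencing depth as well as with enrichment.

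Summits of tagged WDR5A lay at many nuclear tRNA genes. In replicates 1, 2 and 3, 315, 306 and 314 of the 625 loci held at least 1 summit, a mean of 49.9% ± 0.789 (SD, n = 3). A summit in each of the 3 lists was found at 229 loci (36.6%), called loci from here on, against 20.6% of all nuclear genes by the same rule. Summits of 2 lists were found at 86 loci, of 1 list at 76 and of none at 234. Among the loci with 2 lists, the summit was missing 23 times from replicate 1, 33 times from replicate 2 and 30 times from replicate 3, so no single list accounted for most of the gaps. Because neighbouring windows overlap, the 625 windows form 494 separate blocks, and 223 of these held a called locus. The count of called loci was 138 when each summit went to the gene or genes holding it, or otherwise to the nearest gene. It was 98 when only summits of at least the median strength of their list were used. Shares of all nuclear genes under these settings were not computed, and the 20.6% does not apply to them.

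Other gene classes had smaller shares. By the same rule 24.8% of protein-coding genes were called, whose windows are longer than those of tRNA genes. Among other short genes, the share was 17.1% for snoRNA genes, whose RNAs guide the modification of other RNAs, 20.7% for snRNA genes, which encode the RNAs of the spliceosome, and 7.36% for miRNA genes. In single lists, the share of loci with a summit was higher for tRNA genes than for snoRNA genes by 19.1 ± 1.71 percentage points (SD, n = 3), than for snRNA genes by 23.0 ± 3.14, than for miRNA genes by 38.4 ± 1.01 and than for protein-coding genes by 15.9 ± 0.204. Each of these differences was positive in all 3 lists. In an exact sign-flip permutation test over the 3 lists, 2-sided, each difference had p = 0.25, the smallest that 3 lists can give, so no comparison of this kind can pass 0.05.

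The summits sat on the tRNA genes or close to them. Of the 310, 302 and 307 summits in tRNA windows, 266, 262 and 267 lay inside a tRNA gene or within 100 bp of it. Inside tRNA genes, which are 69 to 90 bp long with a median of 73 bp, the 3 lists held 150, 155 and 157 summits. That is 3.16, 3.27 and 3.31 summits per kb, against 0.0898 ± 0.00212 per kb (SD, n = 3) over the 5 chromosomes, a ratio of 36.2 ± 1.38 (SD, n = 3). The density was 1.19 ± 0.0556 per kb (SD, n = 3) at 1 to 50 bp from the gene and 0.599 ± 0.101 at 51 to 100 bp. At 151 to 200 bp it was 0.0998 ± 0.0102 per kb, near that of the chromosomes as a whole. Summit density inside the gene or up to 250 bp outside it was 10.2 ± 0.144 times (SD, n = 3) the density at 751 to 1000 bp. This ratio was 8.86 ± 4.29 for snRNA genes, within whose spread that of tRNA genes lay, 1.98 ± 0.825 for snoRNA genes and 1.22 ± 0.0410 for protein-coding genes. Among tRNA genes it was 21.5 ± 2.44 for isolated genes with a protein-coding gene within 500 bp, 2.23 ± 0.241 for isolated genes without one and 1.11 ± 0.538 for genes with another tRNA gene within 1000 bp. The density at 751 to 1000 bp was not alike in these classes, at 0.0505, 0.269 and 0.157 per kb. It rests on 8, 9 and 8 summits for isolated genes without a neighbour and on 1, 2 and 1 for the last class.

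The profile had another shape at the other classes. Around protein-coding genes the density was highest at 51 to 100 bp outside the gene, at 0.300 ± 0.00333 summits per kb, and was 0.0883 ± 0.00276 (SD, n = 3) inside. At snRNA genes it was highest at 51 to 100 bp outside, at 0.816 ± 0.187 per kb (SD, n = 3), and at snoRNA genes it was highest at 151 to 200 bp, at 0.536 ± 0.161 per kb, within the spread of the neighbouring bins. Within genes, the density was 0.336 per kb for snRNA genes, 0.172 for snoRNA genes and 0.0643 for miRNA genes. With the window narrowed to the gene and 100 bp to either side, 177 tRNA loci (28.3%) had a summit in all 3 lists, against 12.1% of all nuclear genes, 14.6% of protein-coding genes, 11% of snRNA genes, 1.05% of snoRNA genes and 0.613% of miRNA genes.

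**Figure D1:**
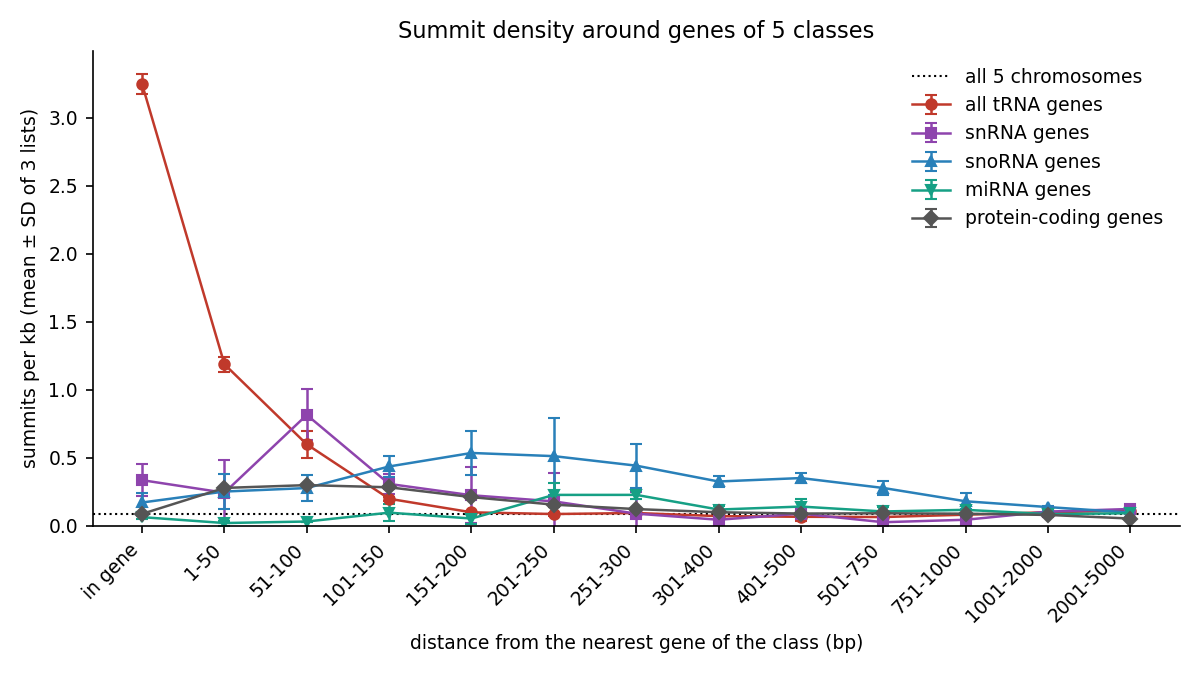
Summits per kb of distinct sequence (mean ± SD of the 3 lists) by distance in bp from the nearest gene of each class, with the level over all 5 chromosomes as a dotted line. The tRNA curve stands at 3.25 per kb inside the genes and is near the chromosome level from 151 to 200 bp outward.

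Where all 3 lists had a summit, their places were compared. Linking summits of different lists within 250 bp gave 219 regions with a summit of all 3 lists inside a tRNA window, 3.28% of the 6683 such regions in the genome. Of the 219, 191 had their median summit inside a tRNA gene or within 100 bp of it, and 110 had it inside the gene. The summits of such a region spread over a median of 57 bp, the same as the median over all 6683 regions. Linking joins only summits within 250 bp of each other, so close places follow in part from the rule.

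Most tRNA loci had a protein-coding gene close by, and summits were found more often at those loci. A protein-coding gene lay within 500 bp of 455 tRNA genes, and 218 of these loci (47.9%) were called. Of the 170 loci without such a neighbour 11 (6.47%) were called. In single lists the share with a summit was 64.0%, 62.2% and 63.3% with a neighbour and 14.1%, 13.5% and 15.3% without one, a difference of -48.8 ± 0.929 percentage points (SD, n = 3). The shares with and without a neighbour did not overlap over the 3 lists (exact sign-flip permutation p = 0.25). Most of the loci without a neighbour are tandem genes, and among isolated tRNA genes alone, a comparison added after the data were seen, the difference was -28.6 ± 2.27 percentage points (SD, n = 3). Over all loci outside chromosome 1, which holds most tandem genes, the difference was -26.8 ± 5.06 percentage points.

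Among isolated tRNA genes, defined by having no other tRNA gene within 1000 bp, the share called was lower beyond 500 bp from the nearest protein-coding gene than within it. Of 209 loci at 1 to 100 bp from a protein-coding gene 113 (54.1%) were called, with a median strength of 8.92 in −log10 q. At 101 to 250 bp 57 of 117 (48.7%) were called with a median of 8.13, and at 251 to 500 bp 17 of 44 (38.6%) with a median of 6.41. Shares were lower beyond that, with 5 of 33 (15.2%, median strength 7.78) at 501 to 1000 bp and 6 of 29 (20.7%, median 6.61) farther out, so that the median strength did not follow the distance over all bins. The mean shares in single lists of these last bins, 37.4% ± 6.31 and 36.8% ± 3.98 (SD, n = 3), differed by less than their spread over the lists. tRNA genes that overlap a protein-coding gene were called at 18 of 43 loci (41.9%), with a median strength of 11.1.

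Summits were densest on the tRNA gene itself both with and without a protein-coding gene nearby. At isolated loci with a protein-coding neighbour, the density inside the tRNA gene was 4.48 ± 0.104 summits per kb (SD, n = 3), and at isolated loci without one it was still 2.22 ± 0.328 per kb, resting on 9, 12 and 10 summits in the 3 lists. Beyond 150 bp the densities were at most 0.137 and 0.108 per kb up to a distance of 500 bp. At 751 to 1000 bp they were 0.0505 and 0.269 per kb. Of the 219 linked regions in tRNA windows, 185 (84.5%) lay closer to the tRNA gene than to any edge of a protein-coding gene, 33 lay closer to such an edge and 1 was at equal distance. The median distance of these regions to the nearest protein-coding edge was 98 bp, and to the tRNA gene 0 bp. These regions were taken for lying within 500 bp of a tRNA gene, so closeness to it follows in part from the rule. The measures also differ. A place inside a tRNA gene has distance 0, while one inside a protein-coding gene is measured to its edge.

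**Figure D2:**
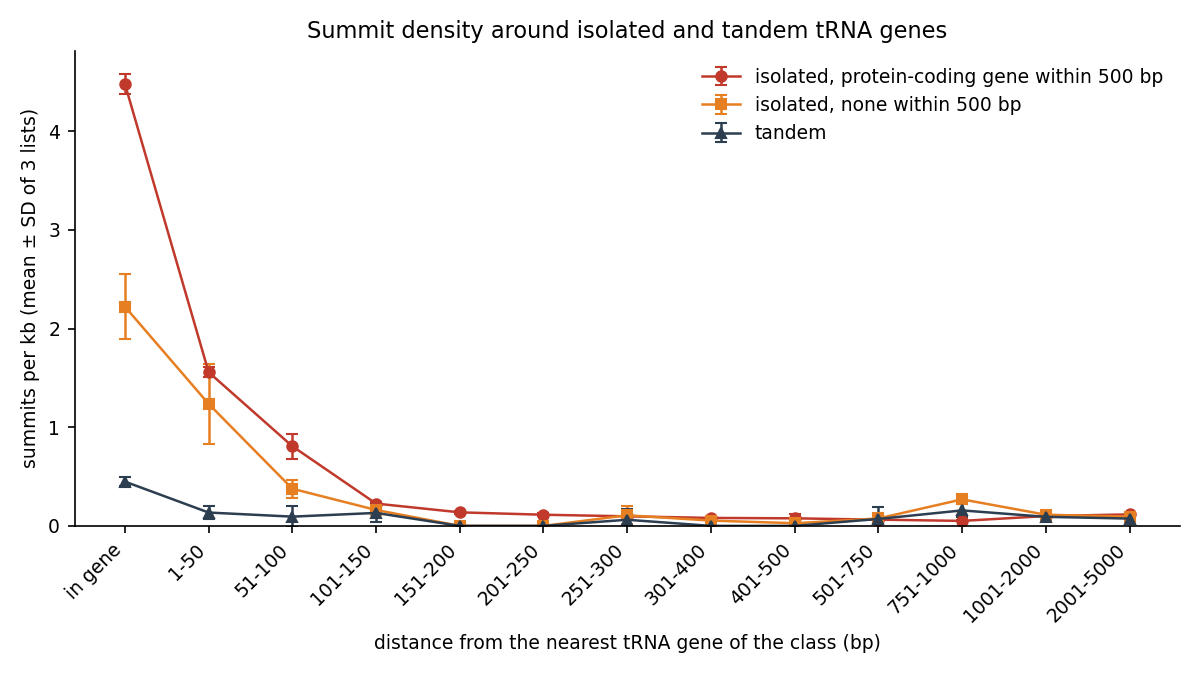
Summits per kb (mean ± SD of the 3 lists) by distance in bp from isolated tRNA genes with a protein-coding gene within 500 bp, isolated ones without, and tandem ones. Density is highest inside the gene in each class, at 4.48, 2.22 and 0.449 per kb.

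Outside the tRNA gene, the summits tended to lie on the side of the protein-coding gene. At the 207 isolated loci with a protein-coding gene on 1 side only, 50, 49 and 49 summits lay between 1 and 500 bp from the tRNA gene on the neighbour's side and 13, 13 and 12 on the other side. The neighbour's side thus held 79.6% ± 0.673 (SD, n = 3) of the summits outside the tRNA gene. A further 67, 63 and 64 summits lay inside the tRNA genes. Strand was not used, so the facing edge of the neighbour can be its start or its end.

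Seen from the protein-coding genes, a tRNA neighbour went with a higher share of called genes. Of the 613 protein-coding genes with a tRNA gene within 500 bp, 363 (59.2%) were called, against 24.0% of the 26831 without one. When summits within 250 bp of a tRNA gene were left out, 105 of the 613 (17.1%) were called. Leaving them out also removes part of each window, so the last share is not directly comparable with the 24.0%.

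Tandem tRNA genes, those with another tRNA gene within 1000 bp, mostly had no summit. Of 150 tandem loci 13 (8.67%) were called and 127 held no summit in any list, whereas of 475 isolated loci 216 (45.5%) were called and 107 held none. In single lists 12.0%, 9.33% and 13.3% of tandem loci had a summit, against 62.5%, 61.5% and 61.9% of isolated loci, a difference of -50.4 ± 1.79 percentage points (SD, n = 3; exact sign-flip permutation p = 0.25). It was -27.6 ± 4.70 percentage points among loci with a protein-coding neighbour and -27.6 ± 2.01 over all loci outside chromosome 1. The tandem loci split by the size of their run. All 13 called loci belonged to the 18 genes in 9 runs of 2, and none of the 132 genes in the 10 runs of 3 or more was called. Each of the 18 genes had a protein-coding gene within 500 bp. The 108 tandem genes without such a neighbour all lay in runs of 3 or more. Run size and neighbour therefore cannot be fully told apart here.

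The largest run, from AT1G56730 to AT1G57530 on chromosome 1, holds 27 serine and 54 tyrosine tRNA genes over 39.7 kb. No list had a summit in it, and the nearest summits lay 5521, 5486 and 5608 bp away. The protein-coding gene nearest to any of its genes is 1424 bp away. The proline tRNA genes of chromosome 1 form 4 neighbouring runs of 4, 5, 11 and 6 genes between AT1G28720 and AT1G28990, and a few summits, 1 in replicate 1 and 2 in replicate 3, fell in the window of the last run only. A run of 9 proline genes on chromosome 2, AT2G33890 to AT2G33970, held 2 summits in replicate 1 and none in the other lists. Each of its genes overlaps the same annotated protein-coding gene, NUDT22. The 4 cysteine genes from AT5G20852 to AT5G20858 and the 3 proline genes from AT1G45242 to AT1G45246 held no summit. Of the runs of 5 or more, the remaining one was AT2G07759 to AT2G07765 on chromosome 2, in a stretch known to carry an inserted copy of mitochondrial DNA. Of the 21 tRNA loci numbered AT2G07, none had a summit in any list. The proline, cysteine and serine-tyrosine runs hold repeated genes for the same amino acids, while the AT2G07 runs mix amino acids, and no sequence was compared here. How reads matching several places were treated is not given in the sources used here, and whether reads could be placed in the runs was not tested, so a run without summits is uncertain.

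Pairs differed from the longer runs. At 6 of the 9 pairs both genes were called, and at AT1G17660 and AT1G17670 (aspartate and valine), AT2G36510 and AT2G36520 (both leucine), AT3G59923 and AT3G59926 (valine and aspartate), AT3G63003 and AT3G63006 (both alanine) and AT4G11213 and AT4G11216 (both leucine) the strongest summit was the same one for both genes. The lysine pair AT1G79290 and AT1G79300, 529 bp apart, had separate summits with mean strengths of 7.52 ± 2.92 and 6.39 ± 0.825 (SD, n = 3). AT2G36150 (leucine) was called and its partner AT2G36140 (asparagine) had a summit in 2 lists. The proline pair AT1G45238 and AT1G45240 had no summit, and the cysteine pair AT2G39600 and AT2G39610 had one in a single list.

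**Figure D3:**
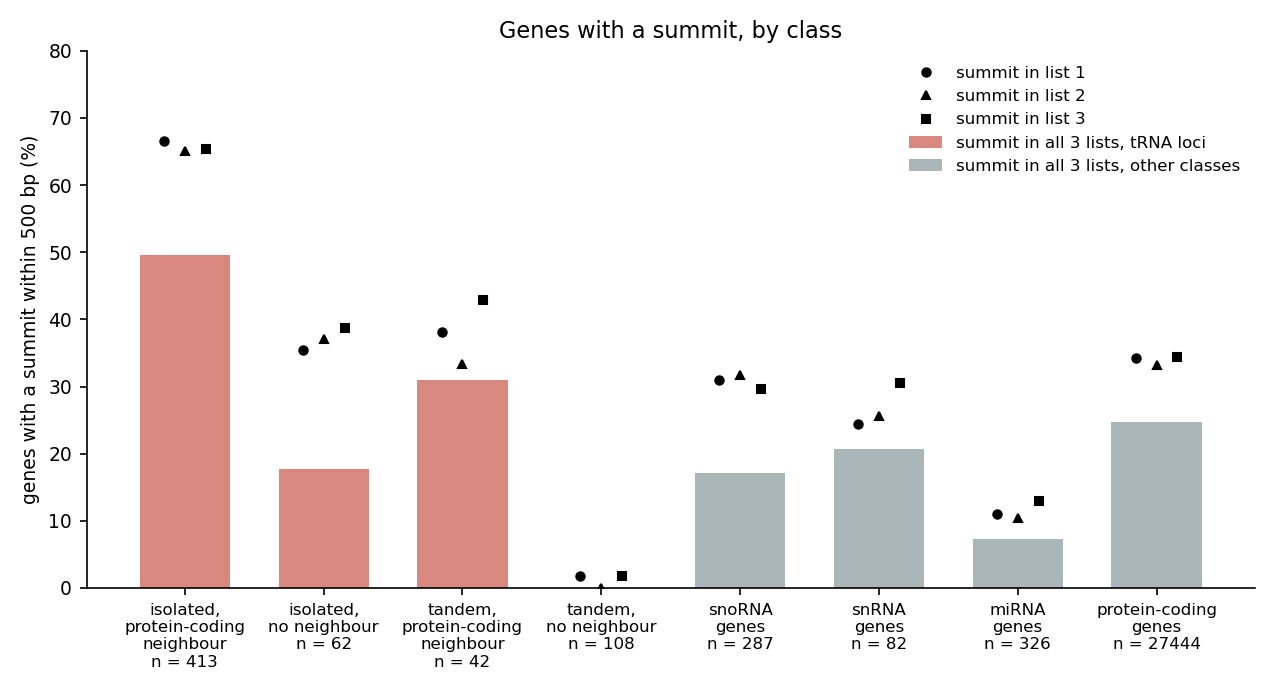
Percent of genes with a summit inside or within 500 bp, as bars for a summit in all 3 lists and as points for each list, for 4 classes of tRNA loci (isolated or tandem, with or without a protein-coding gene within 500 bp) and 4 other gene classes. Isolated tRNA loci with a neighbour reached 49.6% in all 3 lists, and tandem loci without one 0%.

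The isolated loci with no protein-coding gene within 500 bp have neither a protein-coding gene nor another tRNA gene close by. Other kinds of gene around them were not examined. They include some of the AT2G07 loci, none of which had a summit in any list. Of these 62 loci 11 were called, with mean strengths from 5.53 to 13.9, and at 10 of the 11 the strongest summits lay at a median of at most 100 bp from the gene. The highest was AT3G62735, a glycine tRNA gene, with 12.4, 21.5 and 8.002, whose nearest protein-coding gene, BGLU7, is 510 bp away and so just beyond the bound. AT3G48745, a glutamine tRNA gene 2305 bp from the nearest protein-coding gene, had 19.7, 12.2 and 9.45, at positions 18069188, 18069138 and 18069099 of chromosome 3 (TAIR10). The last 2 of these positions lie inside the tRNA gene and the first 39 bp outside. AT3G52285, a proline tRNA gene 1023 bp from the nearest protein-coding gene, had 14.2, 13.2 and 10.4. Strengths at these loci varied by list, and no list was highest at each of them.

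The amino acid carried by the tRNA, read from the synonyms of 623 of the 625 genes, separated the loci mainly through the tandem arrays. Tyrosine had 75 genes and 8 called loci (10.7%), proline 66 and 14 (21.2%), and serine 64 and 19 (29.7%). These families hold 127 of the 150 tandem loci, none of which was called. Among isolated genes, 8 of 18 tyrosine, 14 of 25 proline and 19 of 35 serine loci were called, 41 of 78 in all (52.6%), and 175 of 395 (44.3%) for the other amino acids. Isolated loci of each of the 20 amino acids included at least 2 called ones.

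Between amino acids, the share of isolated loci with a summit varied moderately, and the counts behind each share are small. The isolated loci include AT2G07 loci without a summit in any list, among them methionine, serine and tyrosine genes. Shares by amino acid without these were not computed. The mean share in single lists ran from 48.8% ± 2.06 (SD, n = 3) for the 28 valine genes to 76.7% ± 11.5 for the 10 histidine genes. Lysine followed histidine with 76.2% ± 5.46 over 28 genes, then alanine with 74.2% ± 5.59 over 31 and threonine with 73.6% ± 9.62 over 24. These 4 overlapped within their spread. That spread is over the lists at the same loci and does not measure the uncertainty that comes from few loci. At the lower end leucine had 49.5% ± 5.95 over 35 genes, which overlapped with valine. A summit in all 3 lists was found at 7 of 10 histidine, 18 of 31 alanine, 16 of 28 lysine, 9 of 24 threonine, 2 of 8 cysteine, 10 of 28 valine and 13 of 35 leucine loci. For threonine the count was 15 without replicate 2, and for cysteine it was 5 without replicate 3. By median strength of called isolated loci, methionine genes stood highest at 14.5 (10 loci) and valine genes lowest at 6.03 (10 loci).

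**Figure D4:**
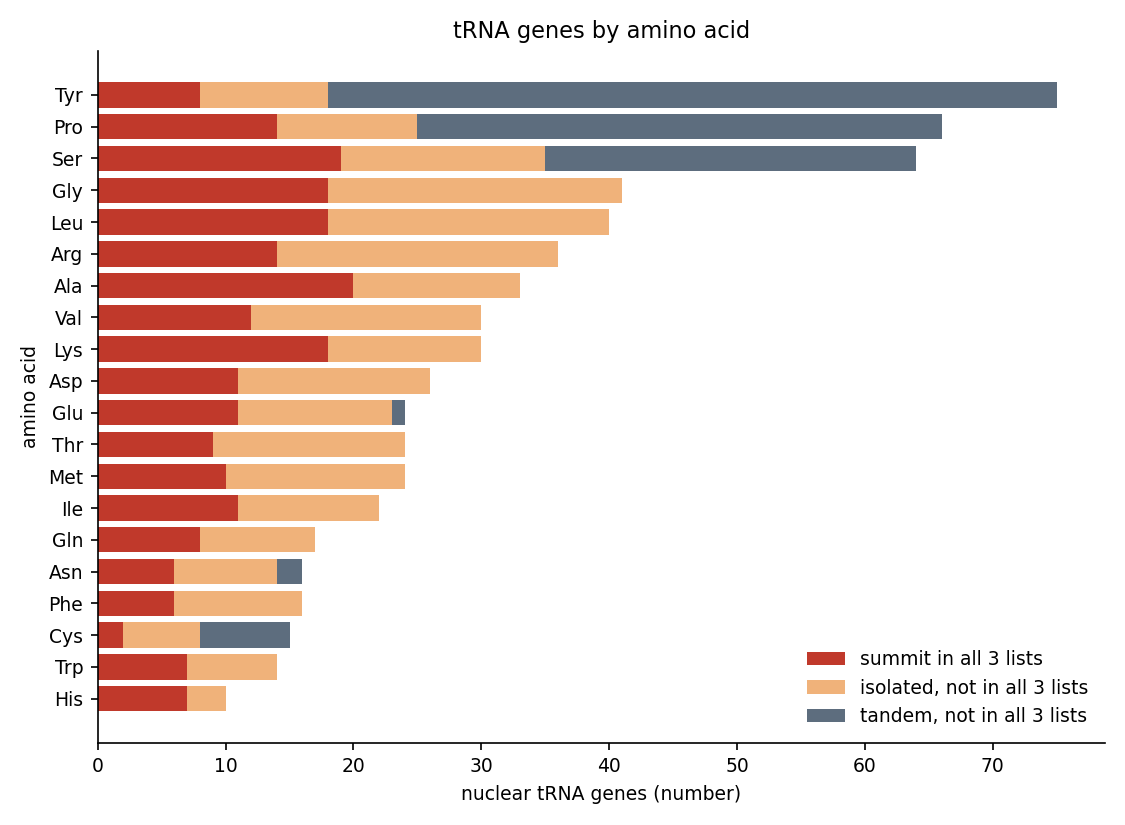
Number of nuclear tRNA genes for each amino acid, split into those with a summit in all 3 lists, isolated ones without, and tandem ones without. Tyrosine, proline and serine have the most genes, and 127 tandem genes of these 3 families have no call.

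In strength, tRNA loci were middling. The median of the summits in tRNA windows was 7.87, 7.43 and 7.60 in replicates 1, 2 and 3, against 7.08, 6.48 and 6.64 for whole lists. The difference within a list was 0.899 ± 0.0989 (SD, n = 3) and was positive in 3 of 3 lists (exact sign-flip permutation p = 0.25). Above or at the median of their list were 58.1% ± 1.03 (SD, n = 3) of tRNA summits, but only 4.25% ± 0.622 belonged to the strongest 10%. Over called loci the mean strength ran from 2.98 to 39.8 with a median of 8.64, and 91 of 229 exceeded 10 and 13 exceeded 20. The median of the mean strength was 8.90 over called protein-coding genes. Among regions linked over all 3 lists the order was the other way, with a median strength of 8.83 within 100 bp of a tRNA gene against 9.12 for all 6683 regions. Of those tRNA regions 53.4% lay below the overall median and 2.09% in the strongest 10%, and the strongest ranked 200 among the 6683. Loci with summits of 2 lists had a median strength of 6.14 and loci with a summit of 1 list 5.09.

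The strongest tRNA locus was AT2G47740, a glycine tRNA gene 202 bp from GH3.9, a member of the auxin-conjugating GH3 family. Its strongest summits had 43.6, 31.5 and 44.4 in replicates 1, 2 and 3, a mean of 39.8 ± 7.22 (SD, n = 3), at positions 19559815, 19559664 and 19559811 of chromosome 2 (TAIR10). Replicate 2 was the lowest and its summit lay 191 bp from the gene, while the other summits lay 40 and 44 bp from it.

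AT5G65015, an arginine tRNA gene 103 bp from the asparagine synthetase gene ASN2, had 29.7, 21.0 and 35.6. AT4G31695, a methionine tRNA gene 183 bp from RPS6, which encodes a protein of the small ribosomal subunit, had 31.4, 24.7 and 22.7. AT5G16375, a serine tRNA gene 127 bp from AAE5, had 32.5, 15.1 and 30.8. In these 3 loci no list was always the highest, and the SD over the lists was 7.34, 4.57 and 9.63.

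The leucine pair AT2G36510 and AT2G36520 shared summits of 24.9, 27.1 and 26.1, with the smallest SD among the first 8 loci (1.09). At AT3G05835, an isoleucine gene, they reached 34.5, 18.5 and 25.1 and lay 173, 183 and 193 bp outside the tRNA gene. AT4G23635, a leucine gene that overlaps the potassium transporter gene TRH1, had 25.2, 20.6 and 21.5. The leucine pair and AT3G05835 were the loci among the 15 whose strongest summits lay at a median of more than 100 bp from the gene.

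Lower in the order came AT4G03285, a threonine tRNA gene 142 bp from PETC, the gene of the Rieske protein of the cytochrome b6f complex, with 16.8, 26.2 and 23.3. AT1G07100 (isoleucine, 64 bp from F2KP) had a mean of 21.7 ± 4.16 (SD, n = 3), AT1G76000 (aspartate) 20.7 ± 4.28 and AT1G72780 (serine, 58 bp from HAB1, a phosphatase gene of abscisic acid signalling) 20.2 ± 3.26. AT5G02615 (arginine) reached 20.01 ± 0.463, AT5G14035 (lysine, 97 bp from the mitochondrial phosphate carrier gene PHT3;1) 19.7 ± 1.34 and AT3G27825 (proline, 108 bp from MDAR4) 19.5 ± 2.14. Neighbours in this order did not differ beyond their spread. In 12 of the 15 loci the strongest summits lay at a median of at most 100 bp from the tRNA gene.

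**Figure D5:**
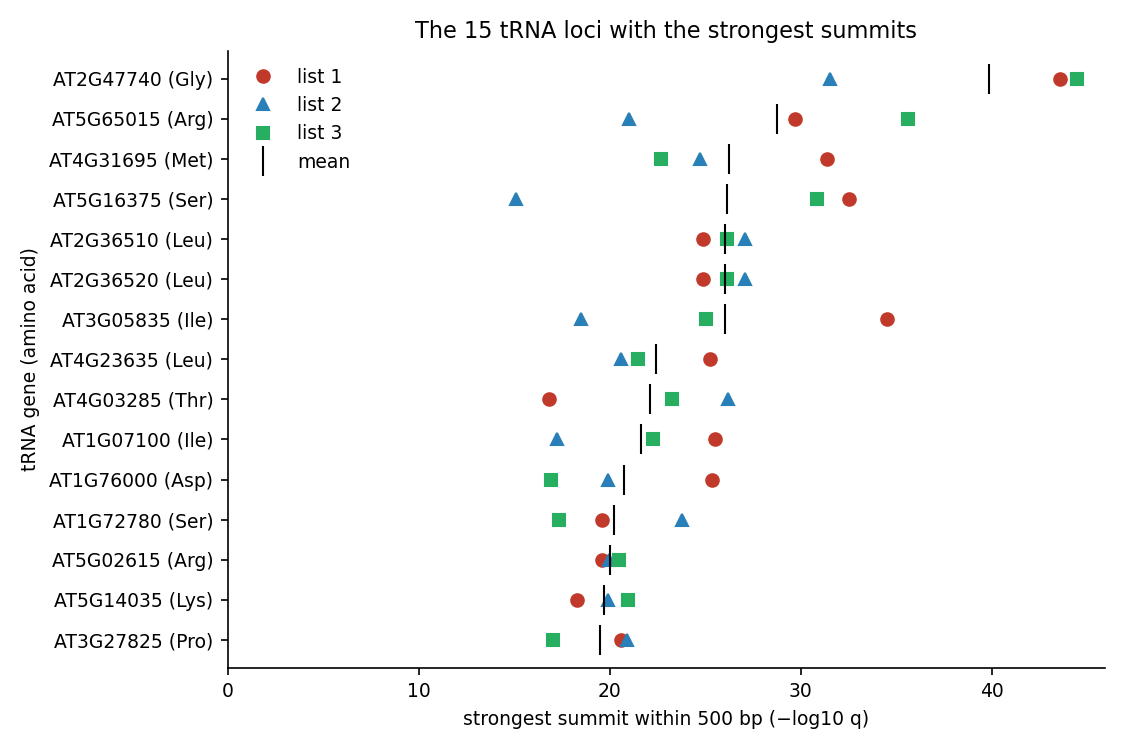
Strength (−log10 q) of the strongest summit inside or within 500 bp of each of the 15 highest tRNA loci, with 1 point per list and the mean as a bar. Means run from 19.5 to 39.8, and the highest list differs from locus to locus.

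At 48 tRNA genes the summits of all 3 lists lay inside the gene itself (7.68% of the 625, against 9.01% of all nuclear genes, most of which are far longer). Each of the 48 was an isolated gene with a protein-coding gene within 500 bp, as were 205 of all 229 called loci. Their mean strengths ran from 3.87 to 19.7 with a median of 7.94. The strongest was AT5G14035, at positions 4530535, 4530506 and 4530518 of chromosome 5. AT5G09655, a valine tRNA gene 11 bp from PMDH2, a gene of peroxisomal malate dehydrogenase, had 20.5, 15.4 and 22.0, at positions 2993378, 2993363 and 2993341 of chromosome 5. AT1G80430, a serine gene, had 17.6, 19.3 and 15.1 and AT1G80250, a tryptophan gene, 17.4, 13.3 and 18.8. No list was the highest at each of these 4 genes.

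The others came from 18 amino acids. For lysine they were AT2G45390, AT3G56085, AT4G00085 and AT5G44283, and for proline AT1G10440, AT1G20420, AT2G21360, AT3G27845 and AT5G18755. The alanine genes were AT2G02600, AT2G03490, AT4G11355 and AT5G39895, the methionine genes AT1G11010, AT1G32620, AT2G23650 and AT5G67455, and the remaining valine genes AT2G03790, AT2G29520 and AT5G15175. Asparagine was represented by AT1G69300, AT2G01160 and AT5G66535, glycine by AT2G30190, AT5G11325 and AT5G59385 and serine further by AT3G58035 and AT5G58495. Arginine genes were AT4G34035 and AT4G34415, aspartate genes AT1G03515 and AT1G18430, isoleucine genes AT1G68860 and AT3G02315 and leucine genes AT5G41605 and AT5G64855. Threonine genes were AT3G59415 and AT4G34975, tyrosine genes AT5G03445 and AT5G61835, and the other tryptophan gene AT4G17612. AT1G77560 (glutamine), AT3G05525 (glutamate) and AT5G64735 (histidine) complete them. No cysteine or phenylalanine gene was among the 48.

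By chromosome, the share of isolated loci called was 47.5% on chromosome 1, 36.6% on chromosome 2, 43.2% on chromosome 3, 45.3% on chromosome 4 and 50.4% on chromosome 5. In single lists chromosome 2 had the lowest mean share of isolated loci with a summit, 52.1% ± 1.41 (SD, n = 3), and chromosome 5 the highest, 66.7% ± 2.43. Chromosome 2 holds the 21 AT2G07 loci, some of them isolated, none of which had a summit in any list. Its share without them was not computed, so its low rank cannot be told apart from the presence of these loci. With tandem loci included, chromosome 1 had 62 of 238 loci (26.1%), the lowest share, and chromosome 5 had 60 of 123 (48.8%).

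The genes that encode the machinery of tRNA transcription and processing were looked up as well. Of 21 listed genes 18 matched the annotation by locus and symbol, and 3 of these (16.7%) were called, against 24.8% of protein-coding genes, a gap that was not tested. By locus alone 4 of the 21 (19.0%) were called, the added one being AT5G13240, listed as the polymerase III repressor MAF1, a symbol that the annotation does not give, with 2.05, 4.71 and 4.51. TBP1, a gene of the TATA-binding protein that is part of TFIIIB, had 12.0, 9.01 and 10.1. TFIIIA, the factor of the 5S rRNA genes, had 8.85, 6.27 and 7.97, and PRORP2, a protein-only RNase P that trims the 5′ end of tRNA precursors, had 4.36, 7.56 and 3.99. NRPC1, the gene of the largest subunit of RNA polymerase III, had a summit in replicates 1 and 2, at 4.22 and 4.41, and NRPC2, that of the second-largest subunit, had none. A summit in 2 lists was also found at the tRNase Z genes TRZ1, TRZ3 and TRZ4, at LA1 and at the tRNA ligase gene RNL. The strongest summits of TRZ3 (9.23 and 1.64 in replicates 1 and 3) were those of the asparagine tRNA gene AT1G52170, 81 bp from TRZ3, and lay 0 and 11 bp from that tRNA gene. TBP2 had a summit in replicate 3 alone, at 2.09. The genes PRORP1, PRORP3, TRZ2, the tRNA exportin gene PSD and the tRNA deaminase genes TAD1, TAD2 and TAD3 had no summit.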

How the data were processed

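Per the submitters' processing notes the tools were fastp, Bowtie2 (2.3.3), MACS2 (2.2.5) and deepTools, on build TAIR10. Not given in the sources used here are peak thresholds, use of the inputs and treatment of multiply mapped reads. The deposited lists give a 1 bp summit and its strength, read as −log10 q because the lowest value lies at the −log10 of 0.05 (1.30). Peak names carry the replicate's number, so peaks were taken as called per sample. Positions were converted to 1-based. Genes, classes and synonyms came from a RefSeq table of TAIR10.1, none of whose coordinates is printed. The share of linked regions within 100 bp of a protein-coding edge was highest at a shift of at most 100 bp on 5 of 5 chromosomes (23.5% to 27.9% with no shift, 6.18% to 11.4% with shifts of 500 to 5000 bp). Strand and sequence were not used.

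Called loci had a summit of each list inside the gene or within 500 bp of it. Densities divide summits by distinct sequence at that distance from the nearest gene of the class. The design text of the series calls replicates biological. Differences between classes of loci were tested over the 3 lists by exact sign-flip permutation. Counting was tested on simulated summits. The loci named were the 15 strongest, those with summits inside the gene in all lists, the 3 strongest of each class and runs of 5 or more, plus smaller runs and pairs chosen after their values were seen. The members and lists were chosen with earlier results of these data known. Python 3.11.15, numpy 2.4.6 and pandas 2.3.3 were used.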

Additional observations from a re-analysis of the deposited data

How the results depend on the processing

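The direction of the neighbour, tandem and strength differences was the same under every alternative run on the lists of summits. For regions linked over all 3 lists the strength order was the other way, 8.83 within 100 bp of tRNA genes against 9.12. The neighbour difference was -25.0 and the tandem difference -27.7 percentage points with gene bodies alone, and they were both -29.3 with summits at or above the list median. The count of called loci moved from 229 to 48 with gene bodies alone and to 98 with summits of at least median strength. It moved to 138 with each summit given to the gene or genes holding it, or otherwise to the nearest. The ratio of near to far density, 10.2, was 8.27 with summits at or above the list median, 14.7 without chromosome 1, 9.72 without tRNA genes inside protein-coding genes, 18.8 with the near range cut to 100 bp and, added after the data were seen, 12.8 for isolated loci only. Leaving out 1 replicate each gave 252 to 262 called loci, neighbour differences of -49.3 to -48.3 and tandem differences of -51.3 to -49.5 percentage points, strength differences of 0.866 to 0.956 and density ratios of 10.1 to 10.3. With 250 bp windows 208 loci were called, with 1000 bp 250, with summits in at least 2 lists 315 and with linked regions 224. For isolated loci of single amino acids, the count moved by over 1.5 times for 19 of 20 with stronger summits. It did so for 11 with each summit given to the holding or nearest gene. No paired analysis was possible because no input library had a list. Depth is unknown, and with 3 lists of 1 group no test can pass 0.05.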
